A study of Rattus norvegicus with 7 samples.

Results

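The miR-30 family was examined on Agilent rat miRNA arrays as 7 mature miRNAs, out of 719 on the array: rno-miR-30a-5p, rno-miR-30a-3p, rno-miR-30b-5p, rno-miR-30c-5p, rno-miR-30d-5p, rno-miR-30e-5p and rno-miR-30e-3p, written below without the species prefix. They were found on the array by name, with no measured value in the rule, and all of their 14 probes, out of 1730, were read. The samples were total RNA from RSkMC, rat primary skeletal muscle cells isolated from newborn limb muscle and bought as cells frozen at an early passage, on day 11 of differentiation. Differentiation is started by a switch to horse serum, which lets myoblasts stop dividing and fuse. The control group of 3 arrays was untreated, and the IL-6 group of 4 arrays had recombinant interleukin-6 (IL-6), a cytokine that working muscle releases, at 1 ng/ml throughout. The titles and the series design set the groups, since the culture description given for the controls also mentions IL-6. Whether the arrays of a group came from separate cultures is not given in the sources used here. The p-values therefore cover the spread between these RNA samples, and that spread may be technical.

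miR-30 miRNAs are made from hairpins that carry a mature miRNA on each arm, the 5p and the 3p strand. Usually 1 of the strands is kept by Argonaute and the other is degraded. The 5p strands share their seed, the bases that pair with target messenger RNAs, and the family is known for repressing connective tissue growth factor in rat heart cells and for restraining fibrosis. The hairpins lie in pairs: Mir30a beside Mir30c2, Mir30c1 beside Mir30e, and Mir30b beside Mir30d. In RefSeq's GRCr8 annotation no gene lies wholly between the partners, but some genes span them. Mir30c1 and Mir30e lie within the bounds of Nfyc, a subunit gene of the transcription factor NF-Y. Mir30b and Mir30d lie within those of LOC102551574, and Mir30c2 within those of Rbx1-ps1 and LOC134480562. miR-30c-5p is made from both Mir30c1 and Mir30c2, and the array cannot tell these sources apart.

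Mature sequences of 4 of the 7 members were matched by name in RefSeq's miRNA table (GRCr8). They are shown for their seeds, and because the bases that differ decide which members an array probe can tell apart. Capitals mark the seed, bases 2 to 8 from the 5′ end.
miR-30a-5p: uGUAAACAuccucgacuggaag
miR-30e-5p: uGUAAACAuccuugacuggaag
miR-30c-5p: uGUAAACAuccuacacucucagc
miR-30a-3p: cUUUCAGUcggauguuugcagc
The 3 matched 5p strands have 1 seed, and miR-30a-3p has another. The positions in GRCr8 are chr9:33233946-33233967 for miR-30a-5p and chr9:33233987-33234008 for miR-30a-3p, both on the plus strand. For miR-30e-5p the position is chr5:139637504-139637525 on the minus strand. Counted from the 5′ end, miR-30a-5p and miR-30e-5p differ by the single substitution C13U and are identical at 21 of 22 positions. miR-30a-5p and miR-30c-5p are identical at 17 of 22 compared positions and differ by C13A, G14C, G18C, G19U and A20C. The Mir30a hairpin, at chr9:33233941-33234011 on the plus strand, holds both arms that the array measures, here in capitals, with the 5p arm at bases 6 to 27 and the 3p arm at bases 47 to 68.
Mir30a: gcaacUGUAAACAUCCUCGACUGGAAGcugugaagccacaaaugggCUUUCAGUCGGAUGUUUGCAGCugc

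The array reads the 3′ end of each miRNA, which is where the 5p strands differ. The probe used for miR-30a-5p pairs with the last 16 bases, that for miR-30e-5p with the last 17 and that for miR-30c-5p with the last 18. Their letters, 5′ to 3′, were as follows.
miR-30a-5p probe: cttccagtcgaggatg
miR-30e-5p probe: cttccagtcaaggatgt
miR-30c-5p probe: gctgagagtgtaggatgt
The probes for miR-30a-5p and miR-30e-5p share their first 9 bases, and those for miR-30a-5p and miR-30d-5p their first 10. Both counts stop at the first mismatch. After it, the miR-30a-5p and miR-30e-5p probes are identical again up to the end of the shorter one. The probe for miR-30d-5p is the shortest of the 7, with 14 bases, and the richest in G and C, at 64.3%, where the others have 16 to 18 bases and 47.1% to 56.2%. How far these or the other members' probes share signal was not tested. The changes of miR-30a-5p, miR-30d-5p and miR-30e-5p are therefore not taken as separate measurements, nor are those of miR-30b-5p and miR-30c-5p. Probes also differ in how brightly they report a molecule, so signals of different miRNAs are not read as an order of abundance here.

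The 5 miR-30 5p strands were detected on all 7 arrays, with both probes of each well above background on every array. Values below are the brightest probe's processed signal, a background-subtracted intensity, scaled so that all arrays share a 75th percentile, and the log2 of it. Each probe has 10 spots on an array, and the median over arrays of the spread between spots of the 5 probes used lay between 3.89% and 6.02% of the signal. Of the 3p strands, miR-30e-3p was called detected on all 7 arrays and miR-30a-3p on 5, that is 1 of 3 control and 4 of 4 IL-6 arrays. The array also holds 4 other miR-30 names, miR-30b-3p, miR-30c-1-3p, miR-30c-2-3p and miR-30d-3p. None of these was detected on any array, and the highest signal of their 14 probes was 7.51 intensity units, under the floor of 15.7 units that was set before taking log2.

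Across the array, 168 miRNAs were detected on every array, and the raw 75th percentile of the detected probes ran from 419 to 615 intensity units. Detection was uneven: 174, 178 and 185 miRNAs were detected on control replicates 1 to 3. On IL-6 replicates 1 to 4 the numbers were 199, 207, 179 and 188. Neither miR-1, miR-133a, miR-133b, miR-206, miR-208a, miR-208b nor miR-499, the miRNAs that define striated muscle, was detected on any array (7 of 7 listed undetected). These miRNAs thus gave no sign of muscle differentiation in the samples, and how far the cells had differentiated was not tested. All 5 fibroblast and smooth muscle miRNAs of the list (miR-143-3p, miR-145-5p, miR-199a-3p, miR-199a-5p and miR-214-3p) were detected on every array. Their summed signal was 23367 to 25106 units on control and 20799 to 24089 on IL-6 arrays, and none of them passed between the groups. Their part in the miR-30 values was not tested. Endothelial (2 of 2) and epithelial (5 of 5) miRNAs were detected on no array, as were 3 of 4 blood miRNAs, and 3 of 5 neural miRNAs were detected on every array, with a summed signal over all 5 of 149 to 173 units in control and 162 to 176 with IL-6. The controls lay in row 1 of the slide and the IL-6 samples in row 2, so row and treatment cannot be told apart. In total RNA of a culture, a change in the number of cells of a type and a change in RNA per cell cannot be told apart either.

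**Figure D1:**
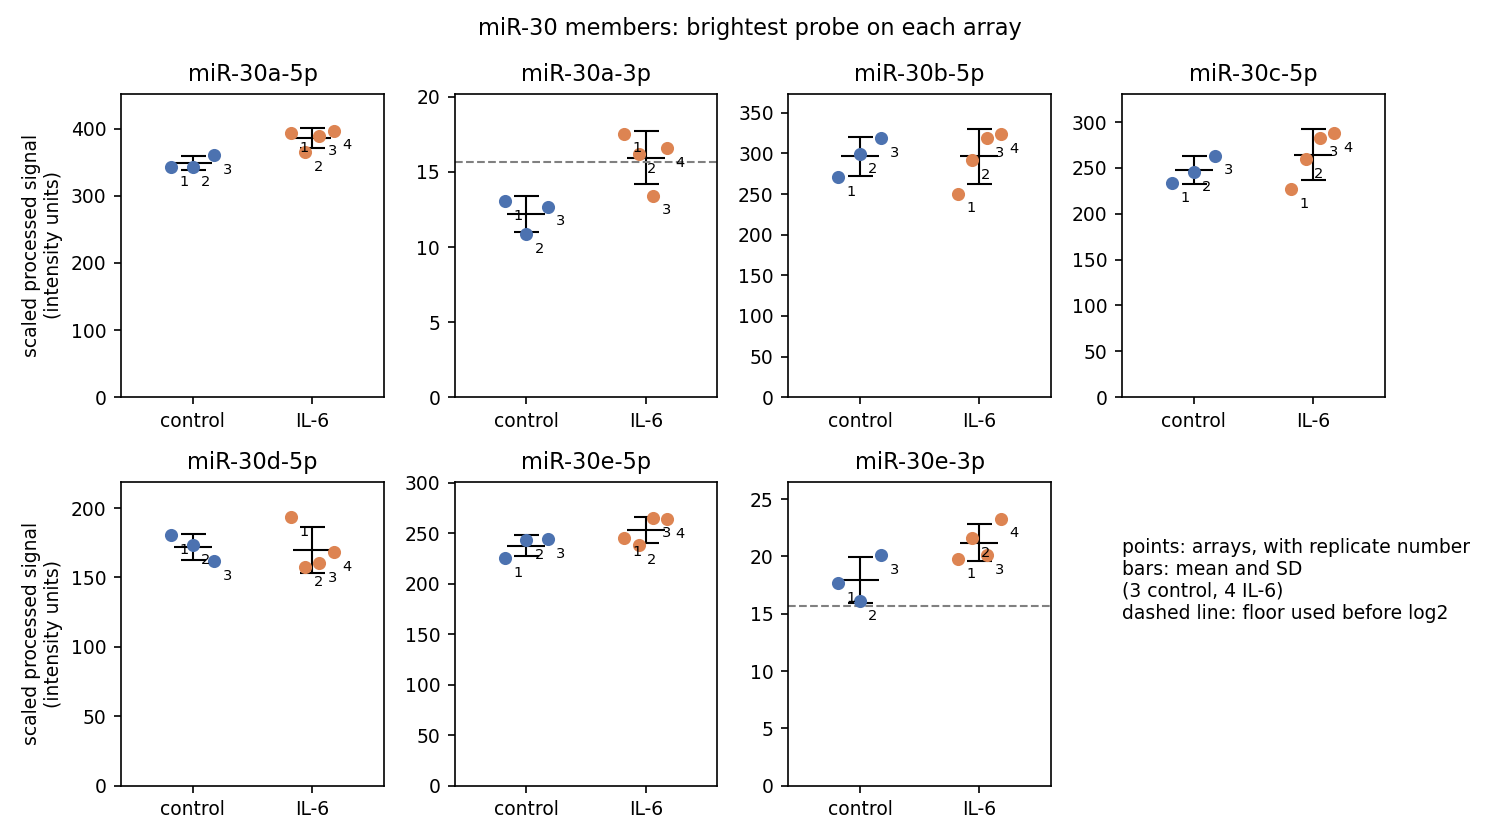
Scaled processed signal (intensity units, vertical axis from 0) of the brightest probe of each miR-30 member on the 3 control and 4 IL-6 arrays, before the floor was set; digits are replicate numbers, bars the mean and SD, and the dashed line in the 3p panels is the floor of 15.7 units. For miR-30a-5p the IL-6 arrays, from 365 to 397, lie above the control arrays, from 342 to 361; in every other 5p panel the groups overlap.

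Treated and untreated cells were compared to ask whether the cytokine alters miR-30 levels on day 11 of the differentiation culture. Of the 7 members 0 passed the test as higher, where 4.97% of the 181 tested miRNAs did, and 0 as lower, where 4.42% did (limma, Benjamini-Hochberg adjusted p under 0.05 over all 181; 9.39% in either direction). Without adjustment 2 members had a p under 0.05, miR-30a-5p and miR-30e-3p, beside 27.1% of all tested miRNAs. Of the 6 members detected on all arrays, 4 had a log2 fold change of IL-6 against control above 0 and 2 below 0, with a median of 0.09. miR-30a-3p is left out of this count because all of its control values were at the floor, so that its change could not be below 0. Over the whole tested set the median was 0.02, and 54.7% were above 0. That set was not cleared of miRNAs whose control values were all at the floor. The largest change of these 6 members was 0.24 on the log2 scale, and none of their 95% intervals reached past 38.2% in size. No such bound is given for miR-30a-3p, whose change depended on the floor. It was 0.07 with the floor and 0.38 with the floor lowered by a factor of 0.5.

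miR-30a-5p came closest among the 5p strands. Its signal was 343, 342 and 361 units on control replicates 1 to 3 and 394, 365, 389 and 397 units on IL-6 replicates 1 to 4. All 4 IL-6 arrays were above all 3 controls, and control replicate 3 and IL-6 replicate 2 came closest. The mean was 349 ± 10.5 units (SD, n = 3) in control and 386 ± 14.6 (SD, n = 4) with IL-6. The log2 fold change was 0.15 ± 0.04 (SE), a difference of 10.7% with a 95% interval of 3.70% to 18.3% (limma, Benjamini-Hochberg adjusted p = 0.0763). The two-sided exact permutation p over 35 splits of the arrays was 0.0571. Of all tested miRNAs, 11.6% had IL-6 arrays that were likewise all above the controls. The shorter probe of miR-30a-5p gave 145, 147 and 151 units in control and 194, 158, 165 and 173 with IL-6, again without overlap, and a log2 difference of 0.22 ± 0.07 (SE). Compared within the 3 slide columns that held both groups, the log2 difference of the brightest probe was 0.20, 0.19 and 0.14, positive in each. Without IL-6 replicate 2, which was alone in its column, the log2 fold change was 0.17 and passed (limma, Benjamini-Hochberg adjusted p = 0.0380). With quantile normalization in place of the percentile it was 0.21 and passed (limma, adjusted p = 0.00541), and with array weights it was 0.16 and passed (limma, adjusted p = 0.0241). With the percentile taken over all probes it was 0.0059 (limma, adjusted p = 1), a setting that put the whole tested set at a median of -0.12. Of its 27 alternatives, miR-30a-5p passed in these 3 named above and not in the other 24. Of the 181 tested miRNAs, 9 passed as higher without IL-6 replicate 2, 7 with quantile normalization and 29 with array weights.

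miR-30e-5p, which differs from miR-30a-5p by a single base, had 226, 244 and 244 units in control and 246, 239, 265 and 264 with IL-6. The groups overlapped only through IL-6 replicate 2, which lay below control replicates 2 and 3. The log2 fold change was 0.09 ± 0.05 (SE, limma, Benjamini-Hochberg adjusted p = 0.358), with a 95% interval of -0.04 to 0.22. Within slide columns the difference was 0.12, 0.12 and 0.11, for the 3 IL-6 arrays that shared a column with a control; IL-6 replicate 2 had none in its column. With slide column as a block in the fit the change was 0.12 and did not pass either (limma, adjusted p = 0.0753). The second probe gave a log2 difference of 0.14 ± 0.06 (SE) with overlapping groups.

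miR-30c-5p, the product of the remaining partners of these hairpins, had 234, 245 and 263 units in control and 227, 259, 283 and 288 with IL-6. IL-6 replicate 1 was the lowest array and IL-6 replicate 4 the highest, so the groups overlapped throughout. The log2 fold change was 0.09 ± 0.09 (SE, limma, Benjamini-Hochberg adjusted p = 0.686), and its 95% interval of -0.14 to 0.32 leaves room for changes of either sign. The second probe gave a log2 difference of 0.18 ± 0.07 (SE, exact permutation p = 0.0857), also with overlapping groups. The direction of the brightest probe was not stable to scaling: it was -0.05 with the percentile over all probes and -0.03 with quantile normalization.

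The neighbours miR-30b-5p and miR-30d-5p had the smallest log2 fold changes of the members. miR-30b-5p had 271, 299 and 319 units in control and 251, 292, 319 and 324 with IL-6. Its group means were 296 ± 23.9 (SD, n = 3) and 296 ± 33.4 (SD, n = 4) units, and the log2 fold change was -0.0039 ± 0.11 (SE, limma, adjusted p = 1). miR-30d-5p had 180, 173 and 162 units in control and 193, 157, 160 and 169 with IL-6, a log2 fold change of -0.02 ± 0.08 (SE, limma, adjusted p = 0.909). Both signs turned under other settings, such as the mean of each miRNA's probes (0.02 and 0.0086). The 95% intervals ran from -0.26 to 0.25 for miR-30b-5p and from -0.22 to 0.18 for miR-30d-5p, which is -16.6% to 19.2% and -14.2% to 13.3%. Within slide columns 1, 3 and 4 the difference was -0.11, 0.09 and 0.02 for miR-30b-5p and 0.10, -0.12 and 0.06 for miR-30d-5p, so neither kept a sign. Their second probes gave log2 differences of 0.05 ± 0.10 and 0.04 ± 0.09 (SE). For each of the 5 members of the 5p arm the second, dimmer probe gave a higher difference than the brightest one.

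**Figure D2:**
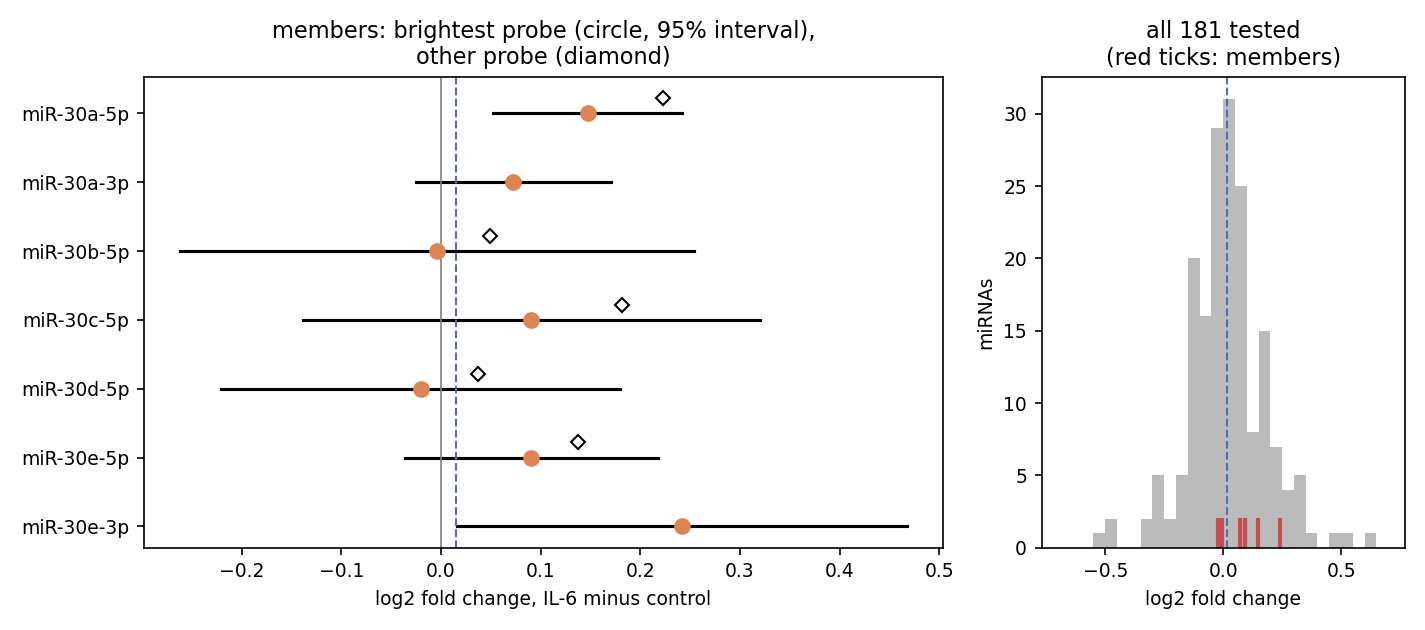
Left, log2 fold change of IL-6 against control for each miR-30 member, with its brightest probe as a circle, the 95% interval as a line and, where it was well above background on all arrays, the other probe as a diamond. Right, the same quantity for all 181 tested miRNAs, with members as red ticks and the median of all, 0.02, as a dashed line; the members lie between -0.02 and 0.24. All control values of miR-30a-3p are at the floor, so its circle and interval depend on the floor.

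The 3p strands were dim. miR-30e-3p had 17.7, 16.1 and 20.1 units in control and 19.8, 21.6, 20.1 and 23.3 with IL-6, all above the floor of 15.7. Its brightest probe was well above background on 1 of 3 control arrays and on 4 of 4 IL-6 arrays, and its other probe on none. Detection was uneven over the whole array as well, so this split is not read as a change of miR-30e-3p. IL-6 replicate 1 lay below control replicate 3, so the groups overlapped. The log2 fold change was 0.24 ± 0.09 (SE), with a 95% interval of 1.13% to 38.2% above control (limma, Benjamini-Hochberg adjusted p = 0.154). Within slide columns it was 0.16, 0.32 and 0.21, positive in each. It passed with array weights (0.31; limma, adjusted p = 0.0376). With outlier spots kept it was 0.09 (limma, adjusted p = 0.716), and once the floor was raised by a factor of 2 all of its values were at it.

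miR-30a-3p was measured at 13.0, 10.8 and 12.7 units on the control arrays, all under the floor, and at 17.5, 16.2, 13.4 and 16.6 with IL-6. Its brightest probe was well above background on 0 of 3 control arrays and on 2 of 4 IL-6 arrays, replicates 1 and 2. Set against the lowest signal that counts as well above background on each control array, the IL-6 mean gave a fold of 0.947, which is under 1, so no lower bound of a change is given. With the floor in place the log2 fold change was 0.07 ± 0.04 (SE, limma, adjusted p = 0.336). This miRNA entered the test only because all IL-6 arrays detected it. Lowering the floor by a factor of 0.5, so that no array lay under it, gave a log2 fold change of 0.38 (limma, adjusted p = 0.0622). With total gene signal, where undetected miRNAs are set to a minimum, it was 1.49 (limma, adjusted p = 0.0937). The size of the miR-30a-3p change thus moved with how values near background were treated.

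Whether the arms of a hairpin moved apart was asked with the difference of the log2 signals of both arms within each array, which does not depend on how arrays are scaled, apart from the floor. A total of 3 such differences were computed. Two-sided exact permutation tests over 35 splits cannot go below p = 0.0286, so after adjustment over 3 no difference could pass the threshold of 0.05 on its own, and a p above it says little here. For miR-30a the 5p minus 3p difference was 4.45, 4.45 and 4.52 in control and 4.49, 4.49, 4.63 and 4.58 with IL-6. All 3 control values are the 5p signal minus the floor, as is that of IL-6 replicate 3, so no test of this difference is given. The floored change was 0.07, and with the floor lowered by a factor of 0.5 it was -0.24, of the other sign. For miR-30e the difference was 3.68, 3.92 and 3.60 in control and 3.63, 3.47, 3.72 and 3.50 with IL-6. The change was -0.15 ± 0.11 (SE, exact permutation p = 0.229, adjusted over the 3 differences 0.343). That adjustment counts the floored miR-30a difference as 1 of the 3, so the adjusted value is not relied on. Without control replicate 2, the array with the widest gap between the arms, the miR-30e change was -0.06. Within slide columns 1, 3 and 4 the miR-30e difference changed by -0.04, -0.20 and -0.10, below 0 in each. Taking the columns as pairs, the mean was -0.11 ± 0.05 (SE, n = 3 pairs, two-sided exact sign-flip permutation p = 0.25, the smallest that 3 pairs can give).

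The third difference was that of miR-30b-5p and miR-30d-5p, whose hairpins are neighbours. It was 0.59, 0.78 and 0.98 in control and 0.37, 0.89, 0.99 and 0.94 with IL-6, and the change was 0.02 ± 0.18 (SE, exact permutation p = 0.971, adjusted 0.971). Within slide columns 1, 3 and 4 it changed by -0.21, 0.21 and -0.04, with a mean of -0.014 ± 0.12 (SE, n = 3 pairs, exact sign-flip permutation p = 0.75). The groups overlapped, while the 7 arrays spanned 0.62 on the log2 scale. The lowest values in both groups were on control replicate 1 and IL-6 replicate 1, the arrays in slide column 1. The second probes of both miRNAs gave -1.51 and -1.80 on these arrays and -1.36 to -1.15 on the others, so the same arrays stood apart with other spots. Control replicate 1 and IL-6 replicate 1 also had the lowest raw 75th percentiles, 419 and 434 units against 466 to 615, and the lowest mean spike-in signals, 11.75 and 11.67 on the log2 scale against 11.79 to 11.81. The part of slide position or array brightness in this difference was not tested.

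**Figure D3:**
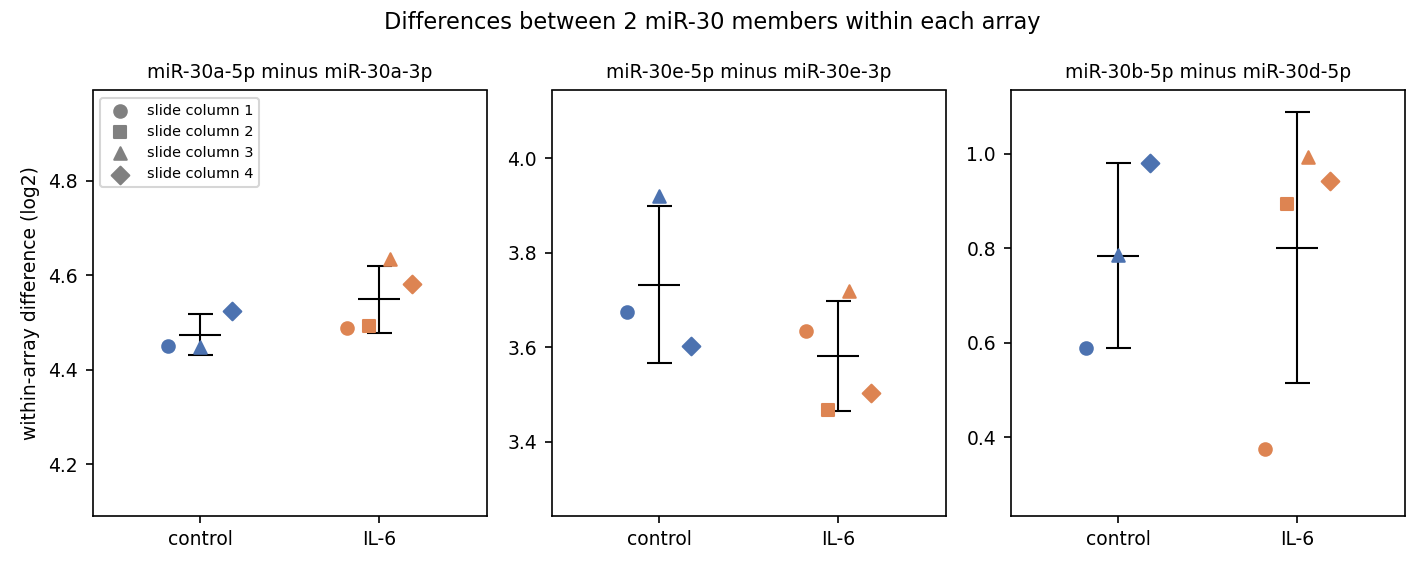
Within-array log2 differences between the arms of miR-30a, the arms of miR-30e, and the neighbours miR-30b-5p and miR-30d-5p, for 3 control and 4 IL-6 arrays; marker shapes give the slide column, bars the mean and SD, and the 3 vertical axes span the same width. In the left panel the 3 control values are the 5p signal minus the floor. The groups overlap in each panel, and in the right panel both slide column 1 arrays, 0.59 and 0.37, are the lowest of their group.

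The members did not all vary together across arrays. Pearson's r of their deviations from the group means, over 7 arrays and given as a description, was 0.99 between miR-30b-5p and miR-30c-5p, which come from different hairpins, and 0.76 and 0.73 between these and miR-30e-5p. Between miR-30b-5p and its neighbour miR-30d-5p it was -0.82, and between miR-30c-5p and miR-30d-5p -0.80. miR-30a-5p and miR-30e-5p, which differ by 1 base, had 0.65, and the arms miR-30e-5p and miR-30e-3p had 0.16. All these values share the arrays and their scaling. How far the probes of miR-30b-5p and miR-30c-5p share signal was not tested, so their r is not read as that of separate measurements. The 2 probes of each 5p strand had r between 0.85 and 0.97 over the arrays, on the log2 scale. miR-30a-5p had the smallest spread within groups, an SD of 0.05 on the log2 scale, and miR-30b-5p the widest, 0.15, where the median of the 168 miRNAs detected on every array was 0.10.

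**Figure D4:**
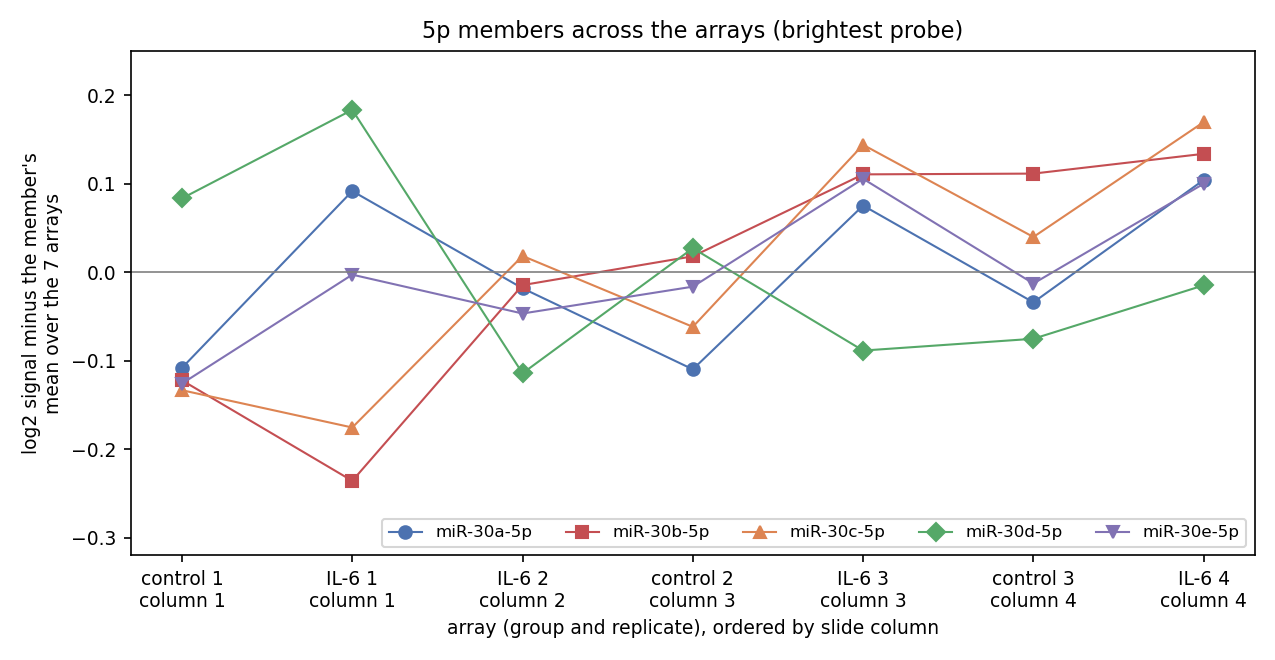
Log2 signal of each miR-30 5p strand minus its own mean over the 7 arrays, with arrays ordered by slide column; lines join the points of a miRNA only to guide the eye. On IL-6 replicate 1 miR-30d-5p is at 0.18 and miR-30b-5p at -0.24, and miR-30b-5p and miR-30c-5p run together across the arrays.

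The mean of the 6 members detected on all arrays, each taken as its deviation from its own mean, was compared with the 174 other tested miRNAs. The most alike over the 7 arrays were miR-337-3p (Pearson's r 0.97), miR-16-5p (0.93) and miR-26a-5p (0.92). Their log2 fold changes were 0.11 ± 0.06, 0.07 ± 0.06 and 0.10 ± 0.04 (SE). These r are the highest of 174 over 7 arrays, with the group difference left in, and are given as a description. The mean also combines members that ran against each other, such as miR-30b-5p and miR-30d-5p, so it is not a pattern that all members share.

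A list of 8 other miRNAs known to restrain fibrosis or connective tissue growth factor was read beside the family: miR-29a-3p, miR-29b-3p, miR-29c-3p, miR-133a-3p, miR-133b-3p, miR-26a-5p, miR-101a-3p and let-7c-5p. Of these 6 were tested, and both miR-133 miRNAs, which are muscle-specific, were detected on no array. Of the 6, 0 passed in either direction (limma, Benjamini-Hochberg adjusted p under 0.05), beside 9.39% of all tested miRNAs, and 3 had an unadjusted p under 0.05, beside 27.1%. All 6 log2 fold changes were above 0, beside 54.7%, with a median of 0.15 beside 0.02. Of the 6, 3 belong to the miR-29 family, and how far their probes share signal was not tested. The 6 are therefore not taken as separate measurements. Named by their array signal, which is no order of abundance, were let-7c-5p, with a log2 fold change of 0.11 ± 0.04 (SE, limma, adjusted p = 0.135), and miR-29a-3p, which represses collagens, with 0.15 ± 0.06 (SE, limma, adjusted p = 0.149).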

How the data were processed

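The members, lists and tests were chosen with earlier results of these data known. Each sample was 1 Cy3-labelled array. Per the file headers, Agilent Feature Extraction 10.10.1.1 produced the deposited linear intensity of every spot, already background-subtracted but not scaled between arrays. The authors' value table holds the same numbers as the total probe signal. Array design positions (rn4) are not used here; printed positions are RefSeq's (GRCr8).

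Outlier spots (2.88% to 3.84%) were removed; no spot was saturated. Probe means were scaled to a common 75th percentile, taken from the 268 probes that all arrays measured well above background (in a share of at least 0.5 of spots), floored at 15.7 units and converted to log2 by the re-analysis, not by the authors. Each miRNA took its brightest probe. A group had to detect a miRNA on all its arrays, which left 181, fitted with limma 3.58.1 in R 4.3.3 (lmFit, eBayes, Benjamini-Hochberg over all) after tests on simulated data. Precision is limited by the 7 arrays, with a median SE of 0.07 for log2 fold changes. All members were named, with the 3 miRNAs of most similar pattern and, of the fibrosis list, those past the threshold or otherwise the 2 of highest array signal, a rule for naming and not an order of abundance. Alternatives were other scalings, backgrounds, floors, filters, probe summaries, blocks, array weights and leaving out each array.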

Additional observations from a re-analysis of the deposited data

Results flagged for a closer look

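Of 10 quantities examined over the 4 IL-6 arrays (the 7 members and the 3 within-array differences), 1 had an array farther from its neighbour than Dixon's critical value of 0.829 allows. For a single quantity chance does so in about 1 in 20. With 10 quantities, which are not independent, that is not the chance of finding 1 such array among them. The quantity that passed was the log2 difference between miR-30b-5p and miR-30d-5p. IL-6 replicate 1 gave 0.37, while the remaining 3 arrays gave 0.89 to 0.99 (ratio 0.839). Of all 7 arrays this one had the highest miR-30d-5p signal, 193 units, and the lowest miR-30b-5p signal, 251 units. Leaving it out changed the group difference of this quantity from 0.02 to 0.16.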

How the results depend on the processing

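The number of members past the threshold as higher, 0 in the report, was 1 with quantile normalization (miR-30a-5p), 2 with array weights (miR-30a-5p and miR-30e-3p) and 0 to 1 when each array was left out. Over all 181 tested miRNAs the number was 9 in the report, 7 with quantile normalization and 29 with array weights. It was 0 to 10 when each array was left out. No member passed as lower in any of 26 alternatives. Over its 27 alternatives miR-30a-5p kept a positive log2 fold change, 0.0059 to 0.33, with limma adjusted p from 0.00541 to 1. Unscaled and spike-in-scaled signals moved the median of all tested miRNAs to 0.17 and 0.18; there miR-30b-5p was 0.17 and 0.18 and miR-30d-5p 0.16 and 0.17, close to that shift. With the percentile over all probes (median -0.12) miR-30c-5p and miR-30e-5p were -0.050 and -0.051, above it, and with quantile normalization miR-30c-5p was -0.026. The small negative changes of miR-30b-5p and miR-30d-5p also turned positive with normexp background (0.0075 and 0.015), the mean of probes (0.023 and 0.0086), total gene signal (0.0010 and 0.0012) and slide column as a block (0.00046 and 0.015), and that of miR-30b-5p with array weights (0.073). Leaving out each array gave -0.066 to 0.074 for miR-30b-5p and -0.084 to 0.016 for miR-30d-5p.

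The miR-30a arm difference turned to -0.044 with normexp, -1.32 with total gene signal, -0.24 with the deposited value table and -0.24 with the lower floor. The miR-30e arm difference turned to 0.091 with the higher floor, which holds the 3p arm constant. The miR-30b-5p minus miR-30d-5p difference was -0.0079 with normexp, -0.00015 with total gene signal and -0.039 with IL-6 replicates 3 and 4 averaged, and -0.082 to 0.16 leaving out each array. With slide columns as pairs, chosen after seeing the data, it was -0.014. Except where stated, the cause was not tested.

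Over all tested miRNAs, 9 were higher and 8 lower in the report. Neither direction had a call with the percentile over all probes, no scaling, normexp, no filter, slide column as a block or without control replicate 1; array weights gave 29 and 18. Over all 26 alternatives the counts ran from 0 to 29 higher and 0 to 18 lower. With replicate number as a block there were 0 higher and 3 lower, 0 members were called and miR-30a-5p was 0.13 (limma, adjusted p = 0.150). Same-numbered samples had correlations of deviations of 0.52, -0.18 and 0.26, so the numbers are not taken to pair samples, and not every sample correlated best with its own number. Samples of the same slide column had 0.52, 0.19 and 0.13. The 3p strands lay near background, which limits what their signals can show.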
